A study of Mus musculus with 18 samples.

Results

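Old mice whose spatial memory was unimpaired were compared with young mice in the hippocampus, the brain region needed for spatial memory. The comparison used 12 of 18 mouse samples, the 6 titled aged unimpaired and the 6 titled young, chosen by their titles and not by any measured value. Total RNA of each sample was measured on 1 Affymetrix array. The titles give a memory state for the aged samples only. The groups differ in age, and the memory state of the young samples was not checked here. The remaining 6 samples, titled aged impaired, entered the fit for the spread between samples, and their values are given beside those of the genes described. The sources used here do not give strain, sex, age, any treatment, the test of memory, the hour of collection or any pooling of animals. Nor do they tie each sample to an animal of its own, so the p-values cover only the spread between these samples, which may be technical in part.

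Microglia are the resident macrophages of the brain. They survey the tissue, take up debris and dying cells, and make much of the complement protein C1q in the brain. With age, microglia are known to raise phagocytic and antigen-handling genes. The dentate gyrus of the adult hippocampus forms new granule neurons from dividing precursors, and this neurogenesis is known to decline with age.

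Median signals as deposited were 23.5 to 30.5 per array, and each array correlated at 0.976 to 0.983 with the array most like it. As a sign of RNA quality, the signal of the 3' probe sets over the 5' probe sets of Gapdh and beta-actin, averaged on the log2 scale, was 0.31 ± 0.07 (SD, n = 6) in young and 0.36 ± 0.06 (SD, n = 6) in aged unimpaired samples, and aged unimpaired replicate 6 and young replicate 3 had the highest values, both 0.425. The number of arrays limits the precision, since an array has no read depth. All levels are log2(signal + 16) after scaling, a difference is aged unimpaired minus young on that scale with its standard error, and the added 16 understates the change of dim genes. The tissue label was checked against marker genes. The mean level in young samples was 11.38 for Wfs1 and 10.20 for Fibcd1, both of CA1, 11.06 for Bok of CA3, and 10.92 for C1ql2 and 9.84 for Dsp, both of dentate granule cells. Grik4 of CA3 and Prox1 of granule cells were dimmer, at 8.42 and 8.40. Markers of neighbouring tissue were present too, with Lamp5 of cortex at 10.68, Rora of thalamus at 9.63 and Ttr of the choroid plexus at 15.69. In bulk tissue a change in the number of cells of a type and a change in RNA per cell cannot be told apart.

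The aged unimpaired hippocampus had higher levels of genes of microglia and lower levels of 2 genes of newborn neurons. Clec7a, Itgb2, C1qb, Aif1 and Fcer1g rose, as did the pseudogene Pisd-ps3, the protocadherins Pcdhb9 and Pcdhb3, the protease Klk6 and the antiviral gene Zc3hav1. Sox11 and Dpysl3 fell, together with the histone gene H2aw and the lipid kinase Sphk1. Marker genes of hippocampal neurons other than newborn ones, of synapses and of energy metabolism held no call. Of 27022 probe sets tested with limma, 37 passed a Benjamini-Hochberg adjusted p of 0.05, or 0.137%. Of these, 30 rose (0.111%) and 7 fell (0.0259%), beside 2214 at an unadjusted p under 0.05. Groups did not overlap for 33 of the 37 called probe sets, and over all tested probe sets for 0.766%. Of the genes named above, only Pisd-ps3, Pcdhb9, Pcdhb3 and Itgb2 kept their call whichever single sample was left out. Clec7a, C1qb, Aif1, Fcer1g, Klk6, Zc3hav1, Sox11 and Dpysl3 also lost theirs with the ratio of 3' to 5' signal as a covariate.

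The comparison moved few genes far. The median difference over all tested probe sets was -0.01, and 45.8% were higher in the aged unimpaired samples. In all, 1% of probe sets lay below -0.62 and 1% above 0.54, against a median standard error of 0.124. Only 63 probe sets differed by more than 1 in either direction, and 14 of these were called. The spread within a group was alike at both ages. The median SD over 6 samples was 0.202 in young and 0.199 in aged unimpaired samples, and 49.4% of probe sets had the larger SD in the aged unimpaired group. Calls came from all levels of brightness, with 8, 14 and 15 calls in 3 equal classes of tested probe sets from dim to bright.

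The called probe sets named 25 genes. On the probe set with the highest mean of each of 13121 genes, 15 genes rose (0.114%) and 4 fell (0.0305%). The 2 groups did not overlap, with the aged unimpaired samples above, for 0.526% of all genes, and below for 0.358%. Another 6 genes were called only on a dimmer probe set. The remaining 10 called probe sets all rose and are unnamed, 9 because the annotation lists more than 1 gene and 1 because it lists none. The number of calls rested on single samples. Leaving out aged unimpaired replicate 1, 3 or 6 gave 22, 19 and 21 calls, and leaving out young replicate 2, 5 or 6 gave 19, 16 and 16. Of the 27 named called probe sets, 7 kept their call without any 1 of the 12 samples, and they belong to 6 genes: Pisd-ps3, Pcdhb9, Pcdhb3, Itgb2, C3ar1 and Zc2hc1c. For C3ar1 and Zc2hc1c the mean of 1 group lay under the level of 5.92 that the filter on dim probe sets set. The other 20 lost it without 3 to 11 of the 12 samples, with adjusted p in limma of at most 0.111. Without aged unimpaired replicates 1 to 6 in turn, 17, 9, 16, 9, 14 and 16 of the 27 lost their call. Without young replicates 1 to 6 in turn, 12, 18, 8, 9, 19 and 19 did.

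With that ratio of 3' to 5' signal as a covariate, 16 of the 27 named called probe sets lost their call, with adjusted p in limma from 0.0562 to 0.103. Among them were Clec7a (difference 1.83, adjusted p = 0.0902), C1qb (0.61, 0.0834), Aif1 (0.61, 0.0886), Fcer1g (0.52, 0.0793), Mpeg1 (0.56, 0.0872), Klk6 (1.70, 0.0872), Zc3hav1 (0.65, 0.0595), Dpysl3 (-0.44, 0.0623) and Sox11 (-0.50, 0.0562). Both probe sets of Pisd-ps3, and Pcdhb9, Pcdhb3, Itgb2, C3ar1, H2aw, Sphk1, Dmp1, Epn2 and Zc2hc1c, kept theirs. The part of RNA quality in the differences was not tested beyond this fit.

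Among the risen immune genes, receptors of microglia are described first. Clec7a encodes Dectin-1, a receptor for fungal glucans that phagocytic microglia raise. Its level ran from 4.39 to 6.69 in young samples, with a median of 6.32, and from 7.55 to 9.60 in aged unimpaired samples, with a median of 7.93. All 6 aged unimpaired samples lay above all 6 young samples. The difference was 2.10 ± 0.39 (adjusted p = 0.0389 in limma), and no fold is given because the young samples lie near the dimmest level tested, 5.92, and the difference was 2.55 and 1.51 with offsets of 1 and 64. The call was lost with an offset of 1 (adjusted p = 0.0889) and with no filter (adjusted p = 0.0782). Young replicate 6 was lowest at 4.39 and aged unimpaired replicate 6 highest at 9.60. Without aged unimpaired replicate 6 the difference was 1.82, and without young replicate 6 it was 1.76. The call was lost without any 1 of 10 samples, and the adjusted p over the 12 fits that leave out 1 sample ran from 0.0418 to 0.0776. Aged impaired samples ran from 8.11 to 9.51, 2.59 ± 0.39 above young, in a comparison that shares the young samples. In that comparison 1.63% of probe sets were called, and between the aged groups 0.0111%.

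Itgb2 encodes the beta chain CD18, which pairs with Itgam to form complement receptor 3. It ran from 7.13 to 7.42 in young samples (median 7.26) and from 8.05 to 8.69 in aged unimpaired samples (median 8.17). The groups were separated by a gap wider than the range of the young samples. Itgb2 was 1.94-fold higher (difference 0.96 ± 0.14, adjusted p = 0.00363 in limma), and aged impaired samples ran from 7.99 to 8.76. Fcer1g, the signalling chain shared by activating Fc receptors, rose 1.53-fold. Its young samples ran from 8.97 to 9.31 and its aged unimpaired samples from 9.55 to 10.02, with no overlap (0.61 ± 0.11, adjusted p = 0.0378). C3ar1, the receptor for the complement fragment C3a, rose on a dim probe set by 1.15 ± 0.14 (adjusted p = 8.25e-04), from 5.09 to 5.90 in young samples to 6.67 to 6.89 in aged unimpaired samples. All young samples of that probe set lay under the filter level of 5.92, which it passed on the mean of all samples, and its difference was 1.49 and 0.68 with offsets of 1 and 64 and its adjusted p 0.00248 with no filter. The 2 other C3ar1 probe sets were higher by 0.63 ± 0.22 and 0.80 ± 0.27 and did not pass.

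Among the molecules that microglia make, C1qb, a chain of the complement starter C1q, had young samples from 10.43 to 10.66 and aged unimpaired samples from 10.94 to 11.64. No sample crossed between the groups, and C1qb rose 1.60-fold (0.68 ± 0.12, adjusted p = 0.0311 in limma). A second probe set rose by 0.70 ± 0.13, and the last was higher by 0.50 ± 0.14 (adjusted p = 0.251). The suffix of the second marks probes that match other transcripts. The other chains did not pass, with C1qa higher by 0.71 ± 0.14 (adjusted p = 0.0539) and C1qc by 0.60 ± 0.13 (adjusted p = 0.103). For both of these, too, all aged unimpaired samples lay above all young samples. Aif1, the actin-binding protein Iba1 used to stain microglia, ran from 7.88 to 8.31 in young and from 8.46 to 9.27 in aged unimpaired samples. It rose 1.58-fold without overlap (0.66 ± 0.12, adjusted p = 0.0330). Mpeg1, a pore-forming protein of macrophages, ran from 9.04 to 9.42 and from 9.58 to 10.19 and rose 1.53-fold (0.62 ± 0.11, adjusted p = 0.0324). Lpxn, an adaptor protein of leukocyte adhesion sites, rose by 0.81 ± 0.15 (adjusted p = 0.0435), and 5 of 6 aged unimpaired samples lay above the highest young sample.

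**Figure D1:**
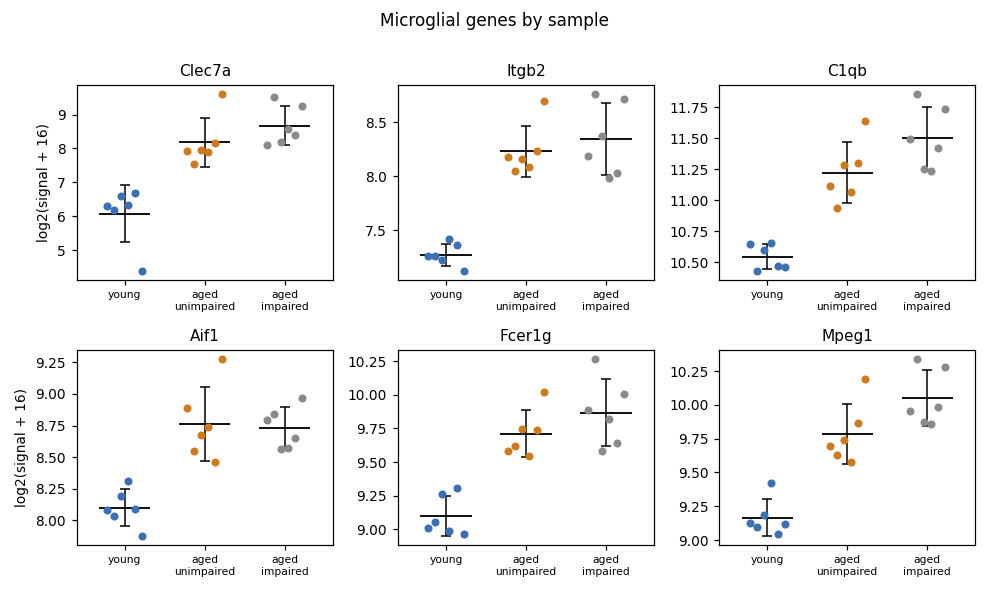
Levels of 6 genes of microglia, log2(signal + 16), in each of 6 young, 6 aged unimpaired and 6 aged impaired samples (points), with the mean (line) and SD (bars) of each group. For all 6 genes every aged unimpaired point lies above every young point, and aged unimpaired replicate 6, the rightmost orange point, is the highest of its group.

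Microglial genes are known to be controlled by PU.1, the product of Spi1, which binds purine-rich DNA around GGAA. Promoters are therefore shown for 3 risen genes with GAGGAA (Clec7a, C1qb and Aif1), for 2 risen genes without it (Fcer1g and Mpeg1) and for Sox11, which fell and also lacks it. They were chosen after the matches were known. Sequences are from RefSeq on GRCm38.p6 and run 5′ to 3′ from 250 bases before to 50 bases after the start of the gene. Capitals mark matches to GAGGAA, or to TTCCTC on the other strand. Clec7a lies at chr6:129472730-129473029, C1qb at chr4:136886151-136886450, Aif1 at chr17:35176003-35176302, Fcer1g at chr1:171234300-171234599 and Sox11 at chr12:27342669-27342968, all on the minus strand, and Mpeg1 at chr19:12460520-12460819 on the plus strand.
Clec7a: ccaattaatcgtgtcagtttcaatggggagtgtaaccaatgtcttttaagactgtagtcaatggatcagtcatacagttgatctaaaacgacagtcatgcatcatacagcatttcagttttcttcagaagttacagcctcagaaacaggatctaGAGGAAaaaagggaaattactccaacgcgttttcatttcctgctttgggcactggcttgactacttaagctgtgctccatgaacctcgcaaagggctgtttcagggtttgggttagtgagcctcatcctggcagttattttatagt
C1qb: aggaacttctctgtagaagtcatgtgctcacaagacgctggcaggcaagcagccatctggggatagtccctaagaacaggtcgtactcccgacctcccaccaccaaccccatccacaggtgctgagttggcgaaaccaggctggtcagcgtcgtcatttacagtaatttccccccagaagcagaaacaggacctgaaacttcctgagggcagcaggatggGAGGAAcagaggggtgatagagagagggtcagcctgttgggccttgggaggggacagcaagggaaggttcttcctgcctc
Aif1: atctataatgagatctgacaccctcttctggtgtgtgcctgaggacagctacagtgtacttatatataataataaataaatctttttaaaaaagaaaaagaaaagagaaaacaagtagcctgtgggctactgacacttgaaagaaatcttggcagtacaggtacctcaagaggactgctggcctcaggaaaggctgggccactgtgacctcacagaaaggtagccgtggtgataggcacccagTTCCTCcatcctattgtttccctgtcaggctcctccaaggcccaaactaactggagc
Fcer1g: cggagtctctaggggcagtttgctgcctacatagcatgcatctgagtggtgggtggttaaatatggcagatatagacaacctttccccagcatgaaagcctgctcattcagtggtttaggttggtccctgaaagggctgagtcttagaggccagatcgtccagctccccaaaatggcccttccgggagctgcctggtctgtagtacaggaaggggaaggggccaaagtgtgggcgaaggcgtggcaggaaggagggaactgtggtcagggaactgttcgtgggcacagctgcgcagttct
Mpeg1: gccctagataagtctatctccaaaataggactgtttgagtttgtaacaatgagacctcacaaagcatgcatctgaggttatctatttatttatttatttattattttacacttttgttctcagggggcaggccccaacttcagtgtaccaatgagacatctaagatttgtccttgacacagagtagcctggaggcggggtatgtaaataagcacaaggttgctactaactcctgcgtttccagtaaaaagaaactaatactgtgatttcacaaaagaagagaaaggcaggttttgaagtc
Sox11: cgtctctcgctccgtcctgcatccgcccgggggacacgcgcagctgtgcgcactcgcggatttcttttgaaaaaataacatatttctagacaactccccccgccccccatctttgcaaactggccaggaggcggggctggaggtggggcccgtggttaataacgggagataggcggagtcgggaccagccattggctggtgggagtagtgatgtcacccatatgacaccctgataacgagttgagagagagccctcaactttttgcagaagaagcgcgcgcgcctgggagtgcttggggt

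Of the 25 called genes, 19 had a promoter in the table, and GAGGAA was present on either strand in 8 of them, 7 of these among the 13 risen genes. The matches were in Clec7a, C1qb, Aif1, AU020206, Depp1, Dmp1, Klk6 and the fallen gene Sphk1. Among the 7 risen genes of microglia and leukocytes whose promoter was matched, 3 held it, and Fcer1g, Mpeg1, C3ar1 and Lpxn did not. The same 6 letters occur in 28.3% of all 32851 promoters of that length, and by gene in 31.3% of 27025. A longer form, GAGGAAGT, occurred in 1 called gene, Dmp1, and in 3.20% of promoters, or 3.69% of genes. GGAAGT, which overlaps it, occurred in 4 called genes and in 23.8% of promoters, or 26.5% of genes. The core TTCC, which all of these contain on 1 strand, occurred in 18 of 19 and in 96.0% of promoters, or 96.5% of genes. A match is a description of these letters only. Clec7a has 2 entries in the table, of which the first is printed.

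Lists of genes for cell types and pathways were counted next, each gene on its probe set of highest mean, beside the same over all genes, where 47.7% were higher, the median difference was -0.01 and 0.145% were called. Some genes stand in more than 1 list. Of 27 tested genes of homeostatic microglia, 26 were higher, 3 rose and the median was 0.29, with 24 that did not pass. Besides C1qb, Aif1 and Fcer1g, C1qa was higher. Among markers that define resting microglia, the differences were 0.29 ± 0.11 for Tmem119, 0.29 ± 0.19 for Cx3cr1, 0.18 ± 0.07 for Csf1r and 0.08 ± 0.11 for P2ry12, and none of these passed. Of 23 genes of activated microglia, 20 were higher, Clec7a and Itgb2 rose and the median was 0.45. In that list Cst7, Itgax, Ch25h and Cybb had young means of 4.77, 5.49, 5.69 and 5.84, under the filter level of 5.92. They passed the filter on the mean of all samples, so the count and the median, which is the value of Cybb, rest in part on the filter. Cst7, an inhibitor of lysosomal proteases, was higher by 1.91 ± 0.39 (adjusted p = 0.0647 in limma), in 5 of 6 samples above the highest young sample. Its difference ran from 1.07 to 2.80 over the alternative fits. Lyz2, macrophage lysozyme, was higher by 1.27 ± 0.31 without overlap of the groups. Itgax and Lpl, which also mark this state, had differences of 0.57 ± 0.36 and -0.01 ± 0.10. The same medians in aged impaired against young samples were 0.38 and 0.88.

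The mean level of the homeostatic list ran from 8.87 to 9.06 in young samples and from 9.22 to 9.67 in aged unimpaired samples. That of the activated list ran from 8.06 to 8.47 and from 8.68 to 9.44. Aged unimpaired replicate 6 was highest of its group for both. Without it the medians were 0.24 and 0.33. Of 20 genes of T cells, B cells and neutrophils, 15 had no tested probe set, Cd3e and Cd3g among them. Of the other 5, 4 were higher and 0 passed, with a median of 0.68 and S100a8 at 0.72 ± 0.44. That median is over the 5 of 20 listed genes that passed the filter. Lcn2, which also stands in the list of reactive astrocytes, is among the 5 and has their highest difference, 2.30. Its young mean of 4.92 lies under the filter level of 5.92, which it passed on the mean of all samples. Without any 1 sample the median of this list ran from 0.29 to 1.01, with no filter it was -0.000306, and in aged impaired against young samples it was -0.01. It was 0.29, 0.33 and 0.39 without aged unimpaired replicate 3, young replicate 1 and young replicate 6. Their part in the result was not tested.

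**Figure D2:**
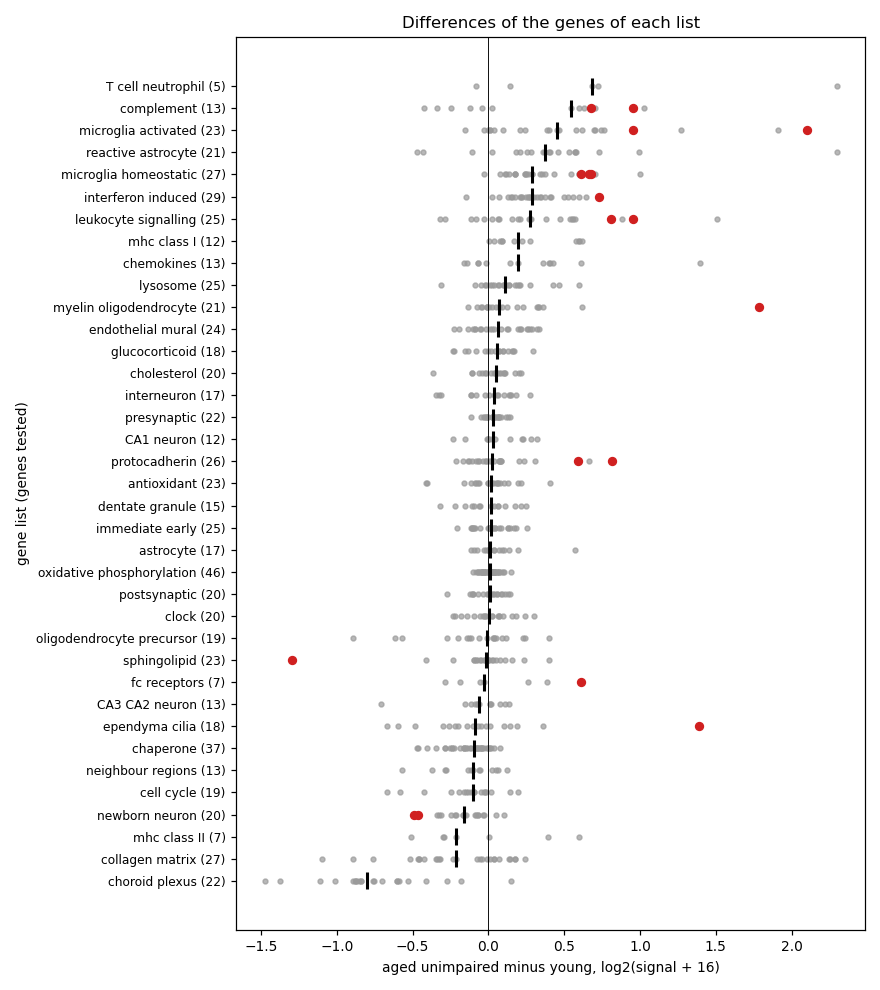
Difference between aged unimpaired and young samples, log2(signal + 16), of each tested gene (points) of 37 gene lists, ordered by the list's median (black bars), with the number of genes tested in brackets and genes called at an adjusted p under 0.05 in red. Lists of microglia and complement lie to the right, with medians of 0.29 to 0.55, as do those of reactive astrocytes (0.37) and interferon-induced genes (0.29). The list of T cells, B cells and neutrophils, with 5 genes tested, has the highest median, 0.68, which was -0.000306 with no filter. Most neuronal lists lie near 0.

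Other immune lists held few calls. Of 13 complement genes 8 were higher, C1qb and Itgb2 rose and the median was 0.55. Of 25 genes of leukocyte signalling 20 were higher, Itgb2 and Lpxn rose and the median was 0.27. Plek, a substrate of protein kinase C in leukocytes, was higher by 0.57 ± 0.11 (adjusted p = 0.0587 in limma) and the tetraspanin Cd37 by 1.51 ± 0.35. Of 7 Fc receptor genes only Fcer1g rose and the median was -0.03, with Fcgr3 at 0.39 ± 0.17. Of 13 chemokines 8 were higher and 0 were called. Ccl12, which attracts monocytes, ran from 4.37 to 6.25 in young and from 6.39 to 7.67 in aged unimpaired samples, without overlap (1.40 ± 0.30, adjusted p = 0.0796). In these lists the young means of Ccl12 (5.52), Cd37 (5.26), Cd48 (5.67), Hcls1 (5.86) and C1ra (5.69) lay under the filter level of 5.92. These genes passed the filter on the mean of all samples. Over the alternative fits the difference ran from 0.81 to 1.97 for Ccl12 and from 0.88 to 2.03 for Cd37.

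Both classes of antigen presentation were counted. Of 12 genes of class I presentation 12 were higher, 0 were called and the median was 0.20. B2m, the light chain of class I molecules, was higher by 0.60 ± 0.14 and H2-K1, a heavy chain whose probes can match related genes, by 0.62 ± 0.15. Of 7 genes of class II presentation 3 were higher and the median was -0.22. H2-Ab1 and H2-Aa, class II chains, had differences of -0.51 ± 0.29 and -0.30 ± 0.31, while the protease Ctss was higher by 0.60 ± 0.13 (adjusted p = 0.0808 in limma).

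Of 29 interferon-induced genes 28 were higher, 1 rose and the median was 0.29. The riser was Zc3hav1, an antiviral protein that binds RNA rich in CpG. Its young samples ran from 7.77 to 8.38 and its aged unimpaired samples from 8.62 to 9.11. The groups did not overlap, and Zc3hav1 rose 1.66-fold (0.73 ± 0.12, adjusted p = 0.0233). A dim second probe set had a difference of -0.34 ± 0.39. Rtp4 was higher by 0.74 ± 0.22, Irgm1 by 0.29 ± 0.09 and Xaf1 by 0.40 ± 0.16. Without aged unimpaired replicate 6 the median of the interferon list was 0.17.

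Among glia other than microglia, 18 of 21 genes of reactive astrocytes were higher, 0 were called and the median was 0.37, or 0.27 without aged unimpaired replicate 6. Osmr, a receptor for oncostatin M, was higher by 0.73 ± 0.15 (adjusted p = 0.0639 in limma) and its dimmer probe set had a difference of -0.21 ± 0.29. Serpina3n, a secreted protease inhibitor, ran from 9.05 to 9.47 in young and from 9.90 to 11.10 in aged unimpaired samples (0.99 ± 0.21, adjusted p = 0.0787). Gfap, the intermediate filament of astrocytes, was higher by 0.57 ± 0.14 on its brightest probe set and by 0.80 ± 0.16 on another, and neither passed. Lcn2, an iron-binding protein, was higher by 2.30 ± 0.66 (adjusted p = 0.269), with aged unimpaired replicate 6 at 9.53. The young mean of Lcn2, 4.92, lies under the filter level of 5.92, which it passed on the mean of all samples. Its difference ran from 1.38 to 3.35 over the alternative fits. Of 17 general astrocyte genes 12 were higher, 0 were called and the median was 0.01.

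Of 21 genes of myelin and mature oligodendrocytes 14 were higher, Klk6 rose and the median was 0.07. Klk6 is a secreted serine protease of oligodendrocytes. It ran from 5.86 to 6.94 in young samples (median 6.79) and from 7.89 to 9.75 in aged unimpaired samples (median 8.16). All aged unimpaired samples lay above all young samples (1.79 ± 0.32, adjusted p = 0.0311 in limma). Aged impaired samples ran from 8.14 to 9.86. Apod, a lipid carrier, was higher by 0.62 ± 0.21 and Hapln2, a link protein at nodes, by 0.36 ± 0.13. Of 19 genes of oligodendrocyte precursors 9 were higher and 0 were called. Gpr17, a receptor of precursors that are about to differentiate, ran from 8.55 to 9.28 in young and from 7.97 to 8.53 in aged unimpaired samples. Those groups did not overlap, yet Gpr17 just missed the threshold (-0.61 ± 0.12, adjusted p = 0.0512). Bmp4, a growth factor that marks the same stage, had a difference of -0.89 ± 0.26 and did not pass, and the general precursor marker Pdgfra differed by -0.06 ± 0.09.

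Other risers had no place among immune or glial genes. Pisd-ps3, a pseudogene of the mitochondrial enzyme Pisd that makes phosphatidylethanolamine, had the smallest adjusted p among named genes. It ran from 10.96 to 11.57 in young and from 12.22 to 12.81 in aged unimpaired samples. The groups lay far apart, and Pisd-ps3 was 2.58-fold higher (1.36 ± 0.13, adjusted p = 1.29e-04 in limma). Aged impaired samples ran from 12.30 to 12.97, with a difference of -0.01 ± 0.13 from the aged unimpaired samples. The next brightest probe set rose by 1.26 ± 0.14, and 3 dimmer ones were higher by 1.32 ± 0.58, 0.86 ± 0.62 and 0.83 ± 0.40 and did not pass. Of the 10 unnamed called probe sets, 6 list Pisd-ps3 among several genes, so 8 calls share this annotation and are not independent of one another. Pisd itself was higher by 0.37 ± 0.08 (adjusted p = 0.0790). The suffix of its probe set, and of the brightest probe set of Pisd-ps3, marks probes that match other transcripts.

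Clustered protocadherins are adhesion proteins whose combinations give neurons a surface identity. Of 26 tested 15 were higher, 2 rose and the median was 0.03. Pcdhb9 ran from 9.81 to 10.15 in young and from 10.73 to 11.02 in aged unimpaired samples. It rose 1.76-fold without overlap (0.82 ± 0.09, adjusted p = 2.66e-04 in limma). Pcdhb3 ran from 8.13 to 8.35 and from 8.61 to 9.11 and rose too (0.59 ± 0.10, adjusted p = 0.0165). Aged impaired samples lay 0.82 ± 0.09 and 0.61 ± 0.10 above young for the pair. Neighbouring members Pcdhb7 and Pcdhb12 were higher by 0.31 ± 0.14 and 0.23 ± 0.11 and did not pass. Members of this family have similar sequences, so probes may share signal between them.

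Spag6, a protein of the central pair of motile cilia, rose by 1.39 ± 0.26 (adjusted p = 0.0415 in limma), from 4.60 to 6.42 in young to 6.49 to 7.44 in aged unimpaired samples. The young mean of 5.64 lies under the filter level of 5.92, and the difference was 1.83 and 0.84 with offsets of 1 and 64. The call was lost with an offset of 1 (adjusted p = 0.0791), with no filter (0.0866) and with the choroid plexus covariate (0.0503). Spag6 was the only call among 18 genes of ependyma and cilia, of which 12 were lower and the median was -0.09. Rsph1 and Rsph4a, other proteins of the same organelle, had differences of -0.67 ± 0.24 and -0.48 ± 0.18. Dmp1, a phosphoprotein of bone and dentin matrix, rose by 0.91 ± 0.16 (adjusted p = 0.0308), with 5 of 6 samples above the highest young sample. Its 2 dimmer probe sets were higher by 0.44 ± 0.18 and 0.18 ± 0.18. AU020206 rose by 0.79 ± 0.15 (adjusted p = 0.0400), without overlap.

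Depp1, a target of FoxO factors, rose on a dim probe set by 1.48 ± 0.28 (adjusted p = 0.0435) and differed by 0.21 ± 0.45 on its brightest. The young mean of the dim probe set, 5.56, lies under the filter level of 5.92, and the difference was 1.87 and 0.93 with offsets of 1 and 64. The call was lost with no filter (adjusted p = 0.0909), with the choroid plexus covariate (0.0699) and without any 1 of 11 samples. Khdrbs1, the RNA-binding protein Sam68, rose by 0.69 ± 0.13 (adjusted p = 0.0471) on a probe set whose suffix marks probes that match other transcripts. Its brightest probe set differed by -0.04 ± 0.06.

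**Figure D3:**
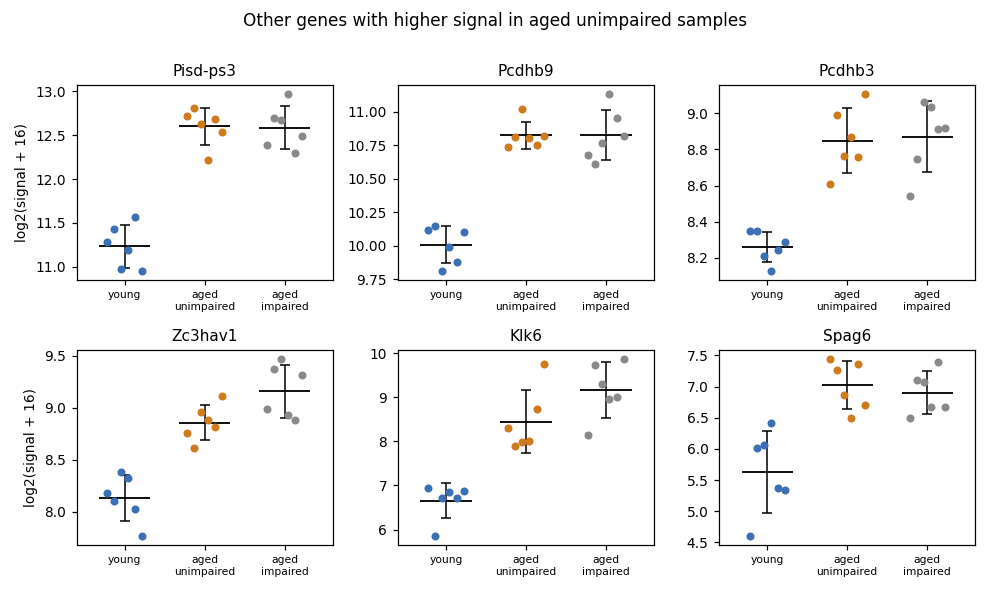
Levels of 6 risen genes that are not among the 6 of microglia shown, log2(signal + 16), by sample (points) with group mean (line) and SD (bars). Pisd-ps3 and Pcdhb9 have the widest gaps relative to their spread, and Klk6 and Spag6 have their young samples at dim levels.

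The fallen genes were few, and 2 of the 4 on their brightest probe set belong to newborn neurons. Sox11, a transcription factor of immature neurons, ran from 9.20 to 9.56 in young samples (median 9.34) and from 8.64 to 9.07 in aged unimpaired samples (median 8.93). No aged unimpaired sample reached the lowest young sample. Sox11 fell by 0.47 ± 0.09 (adjusted p = 0.0435 in limma). Its 5 other probe sets had differences from -0.61 to -0.07 and none passed. The call was lost without any 1 of 11 samples, and the adjusted p over the 12 fits that leave out 1 sample ran from 0.0431 to 0.102. Aged impaired samples ran from 8.60 to 8.98.

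Dpysl3, a cytoskeletal regulator of growing axons, ran from 9.76 to 10.21 in young and from 9.40 to 9.59 in aged unimpaired samples. It fell by 0.49 ± 0.08 without overlap (adjusted p = 0.0278 in limma), while 2 dimmer probe sets had differences of -0.27 ± 0.16 and -0.17 ± 0.16. Of 20 tested genes of newborn neurons 18 were lower, 2 fell and the median was -0.16. Sox4, a close relative of Sox11, had a difference of -0.22 ± 0.07, Dpysl5 of -0.33 ± 0.16 and Dcx, the usual marker of these cells, of -0.16 ± 0.12. The list's mean level ran from 9.84 to 10.07 in young and from 9.74 to 9.79 in aged unimpaired samples. Of 19 cell cycle genes 16 were lower, 0 were called and the median was -0.10. Another 13 of the 32 listed had no tested probe set, Mki67 and Top2a among them. In aged impaired against young samples the median of the list was 0.05. Rrm2, a subunit of ribonucleotide reductase, had a difference of -0.58 ± 0.15 (adjusted p = 0.203), and Mcm3, of the replication helicase, one of -0.42 ± 0.16 with a dimmer probe set at 0.96 ± 0.36.

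H2aw, a core histone of the H2A family, ran from 10.69 to 10.84 in young and from 10.37 to 10.50 in aged unimpaired samples. It fell by 0.33 ± 0.06 without overlap (adjusted p = 0.0283 in limma), and a second probe set had a difference of -0.27 ± 0.07. Aged impaired samples lay lower, from 10.12 to 10.38. Sphk1, the kinase that makes sphingosine 1-phosphate, ran from 5.86 to 7.11 in young and from 4.56 to 5.87 in aged unimpaired samples. These ranges met at the edge, with 5 of 6 aged unimpaired samples below the lowest young sample, and Sphk1 fell by 1.29 ± 0.22 (adjusted p = 0.0233). All aged unimpaired samples lay under the filter level of 5.92, and the difference was -1.82 and -0.72 with offsets of 1 and 64. The call was lost with no filter (adjusted p = 0.0578). Aged impaired samples, from 5.93 to 6.50, differed from young by -0.37 ± 0.22 (adjusted p = 0.438) and from aged unimpaired by 0.93 ± 0.22 (adjusted p = 0.258). Of 23 genes of sphingolipid metabolism and signalling Sphk1 was the only call, the median was -0.01, and the receptors S1pr3 and S1pr5 had differences of 0.40 ± 0.19 and 0.23 ± 0.11.

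The other fallen genes were called only on a dimmer probe set. Zc2hc1c fell by 0.80 ± 0.12 (adjusted p = 0.0109 in limma), from 6.35 to 6.79 in young to 5.56 to 5.87 in aged unimpaired samples, while its brightest probe set differed by -0.05 ± 0.32. All aged unimpaired samples of the called probe set lay under the filter level, and its difference was -1.02 and -0.48 with offsets of 1 and 64 and its adjusted p 0.0320 with no filter. Epn2, an adaptor of endocytosis, fell by 0.46 ± 0.08 (adjusted p = 0.0229) against -0.13 ± 0.09 on its brightest. Ptbp1, a repressor of neuronal splicing, fell by 0.54 ± 0.10 (adjusted p = 0.0311) against -0.13 ± 0.08. The suffix of the called Epn2 probe set marks probes that match other transcripts.

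**Figure D4:**
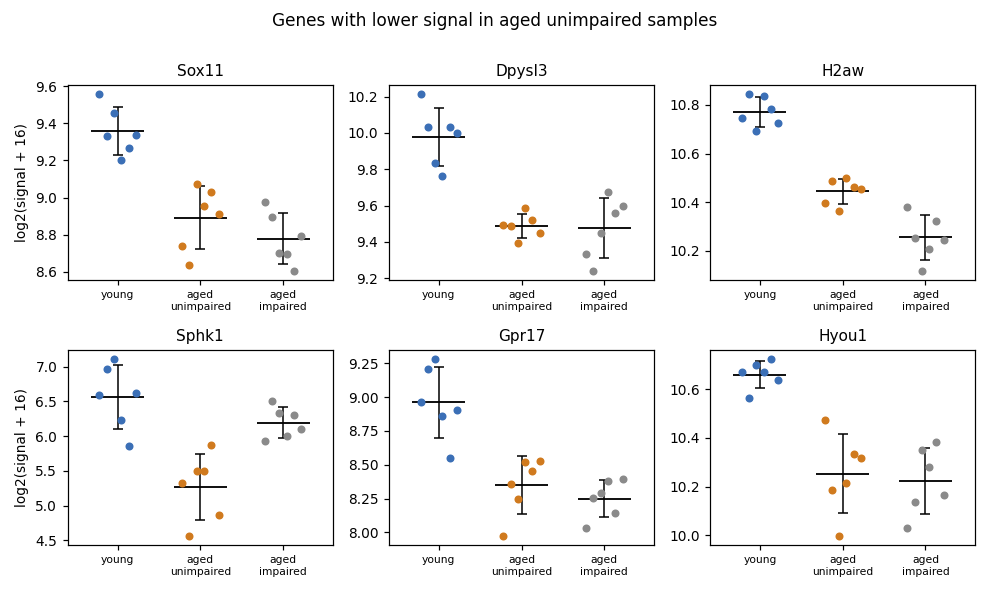
Levels of 4 fallen genes (Sox11, Dpysl3, H2aw and Sphk1) and of Gpr17 and Hyou1, which just missed the threshold, log2(signal + 16), by sample (points) with group mean (line) and SD (bars). For Sphk1 the aged unimpaired samples lie lowest of the 3 groups, and for H2aw the aged impaired samples do.

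Protein folding genes were mostly lower, and none passed. Of 37 chaperones and stress genes 32 had a lower mean, the median was -0.09 and 0 were called. Hyou1, a chaperone of the endoplasmic reticulum, ran from 10.56 to 10.72 in young and from 9.998 to 10.47 in aged unimpaired samples and just missed the threshold (-0.41 ± 0.08, adjusted p = 0.0512 in limma). Its 2 dimmer probe sets had differences of -0.15 ± 0.21 and -0.10 ± 0.19. Calr, a calcium-binding chaperone, and Hspd1, of mitochondria, had differences of -0.24 ± 0.07 and -0.26 ± 0.07, also without overlap of the groups, and Manf one of -0.29 ± 0.08. The list's mean level ran from 11.37 to 11.54 in young and from 11.27 to 11.35 in aged unimpaired samples. In aged impaired against young samples the median of the list was -0.26.

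Genes of the borders of the tissue varied widely between arrays. Of 22 choroid plexus genes 21 were lower, 0 were called and the median was -0.80. Their mean level was 9.14 ± 1.01 (SD, n = 6) in young and 8.40 ± 1.40 (SD, n = 6) in aged unimpaired samples, and it spread from 7.44 to 10.05 and from 6.84 to 10.18. Ttr, the thyroid hormone carrier of that tissue, had a difference of -0.88 ± 0.51. Of 27 collagen and matrix genes 18 were lower, 0 were called and the median was -0.22, with Col1a2 at -0.89 ± 0.25, Col1a1 at -1.10 ± 0.31 and Sparc at 0.24 ± 0.08. With the choroid plexus mean as a covariate 49 probe sets were called, 32 of them among the 37. When the fit kept the 13 arrays of high choroid plexus level, 3 aged unimpaired and 5 young among them, 14 were called, 11 of them among the 37.

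**Figure D5:**
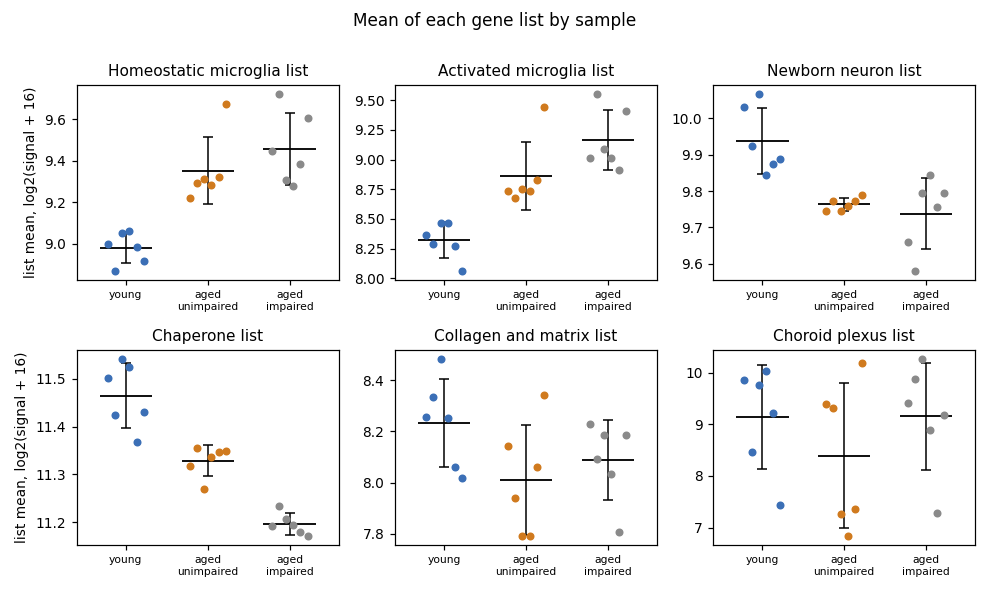
Mean level of 6 gene lists, log2(signal + 16), by sample (points) with group mean (line) and SD (bars). Aged unimpaired samples lie above all young samples for both microglia lists and below all of them for the newborn neuron and chaperone lists, and the choroid plexus means of all groups overlap.

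The lists of hippocampal neuron types other than newborn neurons, of synapses and of immediate early genes lay close to the median of all genes. Each of these had 0 calls. Of 12 CA1 genes 9 were higher (median 0.03), of 13 CA2 and CA3 genes 6 (median -0.06), of 15 dentate granule genes 8 (median 0.02) and of 17 interneuron genes 10 (median 0.03). Fibcd1 of CA1 was higher by 0.32 ± 0.13, Tdo2 of granule cells differed by -0.32 ± 0.13, and the interneuron genes Tac1 and Reln by -0.34 ± 0.14 and -0.32 ± 0.15. Of 22 presynaptic genes 14 were higher (median 0.03), with differences between -0.11 and 0.14. Of 20 postsynaptic genes 11 were higher (median 0.01), with Dlgap1 at 0.13 ± 0.07 and Gria1, a glutamate receptor subunit, at 0.14 ± 0.09. Of 25 immediate early genes, which neuronal activity induces, 16 were higher and the median was 0.02, with Gadd45b at 0.26 ± 0.14.

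Genes of metabolism and of hormone and clock signals also held 0 calls. Of 46 subunits of oxidative phosphorylation 28 were higher (median 0.01), and their differences lay between -0.10 and 0.15. Of 25 lysosomal genes 20 were higher and the median was 0.11, or 0.01 without aged unimpaired replicate 6, with the proteases Ctss at 0.60 ± 0.13 and Ctsh at 0.42 ± 0.13. Of 23 antioxidant genes 13 were higher (median 0.02), among them Hmox1 at 0.41 ± 0.18, while Gss, of glutathione synthesis, differed by -0.41 ± 0.12. Of 20 cholesterol genes 13 were higher (median 0.05), of 18 genes of glucocorticoid response 11 (median 0.05), and of 20 clock genes 10 (median 0.00). Of 24 genes of vessels 15 were higher (median 0.06), and the glucose transporter Slc2a1 was higher by 0.33 ± 0.08 without overlap of the groups (adjusted p = 0.177 in limma). Of 13 markers of neighbouring regions 9 were lower (median -0.10), with Tcf7l2 at -0.57 ± 0.19 and 0.12 ± 0.14 on its 2 probe sets.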

How the data were processed

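Gene expression was measured in 18 mouse hippocampus samples, 6 each titled aged impaired, aged unimpaired and young, with groups taken from the titles. The authors deposited probe set intensity on a linear scale, and the submitters' processing notes name MAS5 without a version. Signals run from 0 to 27601, and the 2%-trimmed mean is 150 on every array. The label on the RNA was biotin, per the labels' protocols.

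Signals were rescaled per array so that this mean became 500, 16 was added and log2 was taken. The 64 control probe sets and the dimmest 40% of the rest were left out, which left 27022 of 45101. Names came from the platform annotation (34945 probe sets with 1 symbol, 932 with several, 9160 with none), and 34741 were matched in a RefSeq table of GRCm38.p6. Probe sets with several symbols are unnamed.

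A linear model with 3 group means over the 18 samples was fitted in limma 3.58.1 (R 4.3.3), 2-sided, with Benjamini-Hochberg adjustment over all tested probe sets and a threshold of 0.05. Values after ± are the model's standard errors, or an SD where so marked. The script was tested on simulated data. Named were every called gene, up to 4 members of lowest p from each list, and defining markers. The gene lists (746 of 883 entries tested) received counts and medians and no test. The members and lists were chosen with earlier results of these data known. The fit was repeated with offsets of 1 and 64, with quantile normalization, with a 60% filter and none, with the replicate number as a block, on only the 12 samples compared, with a covariate for choroid plexus or for RNA quality, with array weights, with trended and robust moderation, and without each sample. A fit of the arrays with high choroid plexus signal was added after seeing the data.

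Same-numbered aged unimpaired and young samples did not deviate together, so the numbers were not taken as pairs.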

Additional observations from a re-analysis of the deposited data

Results flagged for a closer look

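In 262 checks of 1 gene or list in 1 group of 6 samples, 25 had a highest or lowest sample that stood apart from the other 5 by Dixon's criterion. Chance flags about 5% of such groups. These are values with no explanation.

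Aged unimpaired replicate 6 stood high for genes of microglia and of reactive astrocytes. Its level was 9.60 for Clec7a, 8.69 for Itgb2, 12.05 for C1qa, 12.93 for Ctss, 9.98 for Ctsh, 11.10 for Serpina3n and 9.53 for Lcn2. Its mean was 9.67 over the homeostatic microglia list and 9.44 over the activated list. The same sample stood high for Manf (11.26) and for S1pr1 (10.80).

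Other aged unimpaired samples stood apart for single genes. Replicate 3 was high for Pcdhb9 (11.02) and low for Oxt (7.48), replicate 1 was high for Pcdhb12 (8.73), replicate 4 was low for the second probe set of Pisd-ps3 (11.82), and replicate 5 was high for Reln (11.09).

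Among young samples, replicate 6 was low for Clec7a (4.39), replicate 2 was low for Klk6 (5.86) and Fcgr3 (8.15), replicate 3 was low for Gpr161 (9.65) and Pisd (11.04), and replicate 5 was low for Dpysl5 (7.67). Replicate 4 was high for Mpeg1 (9.42) and Nfil3 (8.29) and low for Sv2b (12.82).

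Dbp, an output factor of the circadian clock, was the only named gene whose aged groups differed by the test of that difference. Aged impaired minus aged unimpaired was 0.62 ± 0.07 (adjusted p = 0.00288 in limma), and aged unimpaired minus young was 0.18 ± 0.07.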

How the results depend on the processing

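The number of called probe sets, 37, was within 1.5 times under quantile normalization, offsets of 1 and 64, the 60% filter and the choroid plexus covariate (34 to 50). It was 13 with no filter, 22 in a fit of only the 12 samples compared, 23 with the RNA quality covariate (14 rose and 9 fell), 57 with array weights, 58 with trended and robust moderation and 14 when arrays of high choroid plexus level alone were kept, an alternative added after seeing the data. The cause was not tested. Leaving out 1 sample gave 16 to 33. With the replicate number as a block 17 were called, 14 of them among the 37. The numbers did not pair the samples, since same-numbered samples correlated at -0.247 to 0.0764 in their deviations from the group means, and 1 of 6 aged samples correlated best with its own number.

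Both probe sets of Pisd-ps3, and Pcdhb9, kept their call under all 24 alternatives, while Clec7a lost it under 16 and Sox11 under 18. With no filter, bright genes such as C1qb, H2aw and Dpysl3 lost their call as well as dim ones. Directions of called genes did not turn in any alternative. Among values that had not passed, the brightest probe set of Depp1 was -0.25 with the RNA quality covariate and -0.0105 to 0.48 when 1 sample was left out, S100a8 was -0.24 on those arrays of high choroid plexus level, and the brightest probe set of Zc2hc1c was 0.018 with quantile normalization, 0.0080 with an offset of 64, 0.20 with the choroid plexus covariate, 0.025 with the RNA quality covariate, 0.65 on those arrays of high choroid plexus level and -0.19 to 0.19 when 1 sample was left out. Low signal limits the dim genes: 5 called probe sets, of C3ar1, Depp1, Spag6, Sphk1 and Zc2hc1c, have a group mean under the filter level of 5.92, and the young samples of Clec7a and Klk6 lie near it. Genes not called whose young mean lies under that level include Cst7, Ccl12, Cd37 and Lcn2.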
